A study of Mus musculus with 7 samples.

Results

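The genes described here are 9 integrin subunits of mouse muscle progenitors, *Itga3*, *Itga4*, *Itga5*, *Itga6*, *Itga7*, *Itgav*, *Itgb1*, *Itgb3* and *Itgb5*, with *Itgb1bp2*, a muscle partner of the β1 chain. They were chosen by gene symbol, through the Ensembl identifiers of the count files, and all 10 were found among the 56748 genes listed. RNA came from muscle stem cells (MuSCs) of hindlimb muscles of adult mice, 3 samples from WT mice and 4 from mice homozygous for *Jag2*sm, a natural missense allele of the NOTCH ligand gene *Jag2* that lowers its function. The study describes *Jag2*sm as a stock strain and hypomorphic, whereas the sample labels write the genotype as Jag2-/-. The allele changes an amino acid, so the counts cannot check it, and the level of *Jag2* itself was not called different (log2 fold change −0.64, adjusted p = 0.166 by edgeR).

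Integrins are pairs of an α and a β chain that span the membrane and tie the extracellular matrix to the actin skeleton. In muscle, α7β1 and α6β1 bind laminin of the basal lamina, α5β1 binds fibronectin, α4β1 binds fibronectin and VCAM1, and the αV pairs bind ligands with an RGD motif. The MuSC is a sublaminar cell that carries α7β1, and the β1 chain is known to matter for its upkeep and for fusion of myoblasts. *Itgb1bp2* encodes melusin, a muscle chaperone that binds the cytoplasmic tail of β1.

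The cells of both genotypes were depleted of CD31, CD45 and Sca1 and then selected with an antibody to Integrin α7, the product of *Itga7*. They were cultured on collagen in growth medium with FBS and bFGF. The selection acts on the protein of a member and was shared by WT and *Jag2*sm, and *Itga7* transcript therefore says nothing about cells that lacked the antigen. The myogenic factors *Myod1* (615.4 to 830.0 CPM) and *Pax7* (28.8 to 172.0 CPM) were read in every library. Of 8 endothelial markers, *Kdr*, *Tie1* and *Esam* had no read in any library, and the others had few. The summed level of the 8 was 2.85 to 11.5 CPM in WT and 2.45 to 14.1 CPM in *Jag2*sm, too low for any to be tested. The labels call the samples replicates and do not state that each is a separate animal, so the p-values measure the spread between these samples.

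Direct cDNA was read on a Nanopore instrument, and 187834 to 1937581 reads per library fell on genes. WT replicate 1 was the shallowest, and 45.1% of the reads it aligned missed every gene (20.8% to 25.7% elsewhere). In it 1 read makes 5.76 CPM (read counts after scaling for library size), so results are also given without it where it decides them. Between 46.0% and 50.8% of reads were unaligned in *Jag2*sm replicates 1, 2 and 4, against 2.44% to 3.24% in the remaining libraries. *Itgb1bp2* was lowest in *Jag2*sm replicate 3, which was among the latter. Both genotypes held libraries with *Xist* and libraries with Y-linked transcripts. Reads on *Xist* numbered 75, 1 and 0 in WT and 155, 4, 631 and 2 in *Jag2*sm, in replicate order. Those on the Y-linked *Ddx3y*, *Eif2s3y*, *Uty* and *Kdm5d* numbered 0, 191 and 110 in WT and 4, 138, 0 and 141 in *Jag2*sm. WT replicate 1, the shallowest library, was also the only WT library with more *Xist* than Y-linked reads.

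Of the 10 genes, 9 had enough reads to be tested, and 2 were lower in *Jag2*sm MuSCs at an adjusted p under 0.05, *Itgb1bp2* and *Itga4*. None was called higher. Over the 9489 genes tested, 4.84% were called lower and 1.42% higher by the quasi-likelihood test of edgeR with Benjamini-Hochberg adjustment over all genes. The median log2 fold change (*Jag2*sm over WT) of the 9 genes was −0.21, beside 0.05 for all genes, and 8 of the 9 values were negative. In 3 of them (*Itga4*, *Itgb1* and *Itgb1bp2*) all *Jag2*sm libraries were lower than all WT libraries, a separation seen in 12.2% of all genes. In 1, *Itgav*, all *Jag2*sm libraries were higher, as in 10.3% of all genes.

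**Figure D1:**
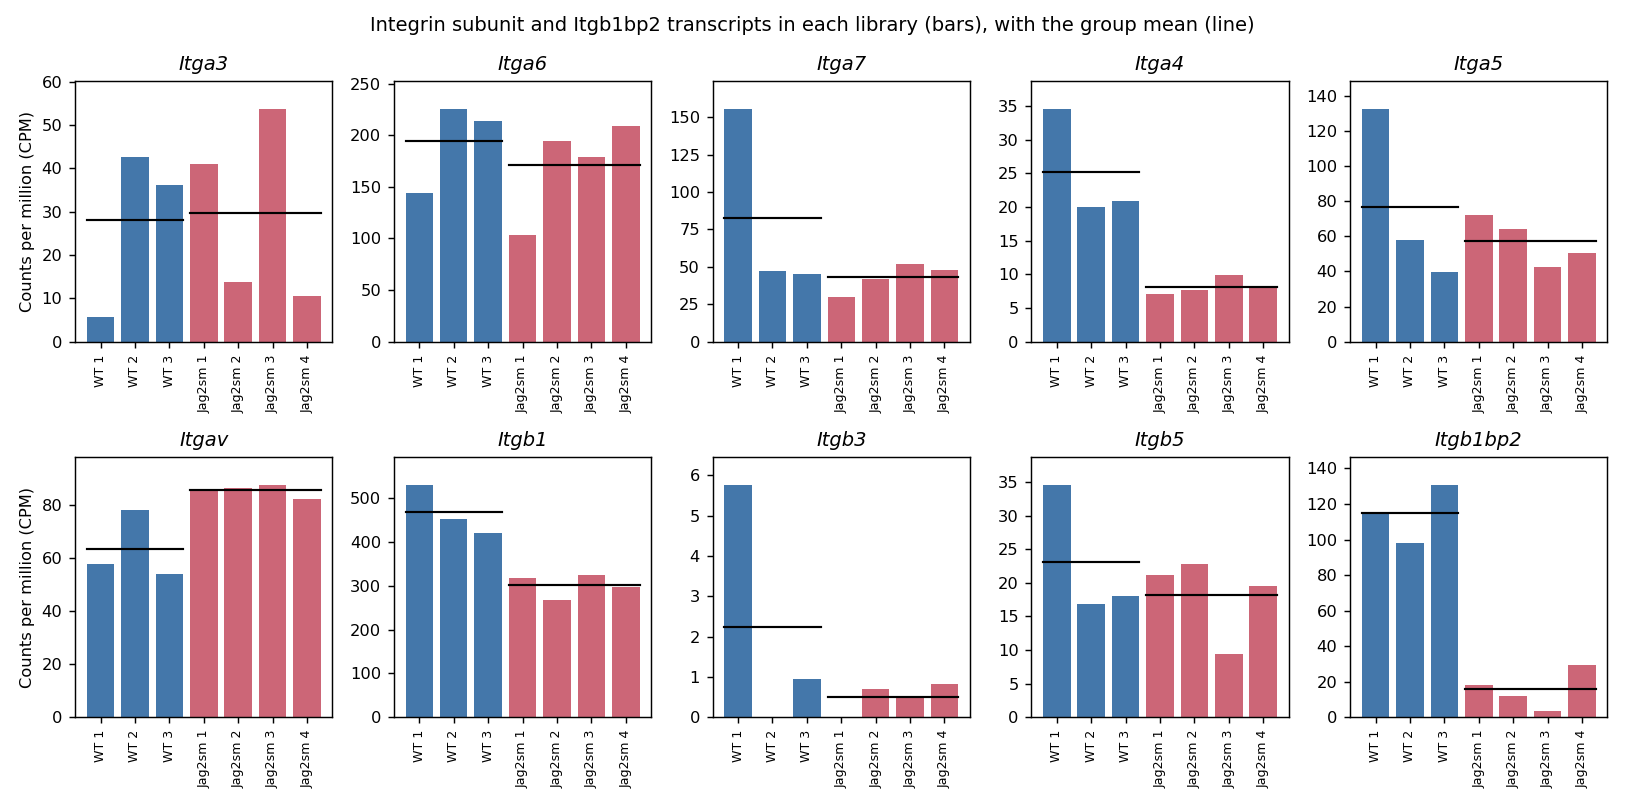
Normalized level (CPM, linear axis from 0) of each of the 10 genes in each library, WT in blue and *Jag2*sm in red, with the mean of each genotype as a line. *Itgb1bp2* and *Itga4* stand lower in all 4 *Jag2*sm libraries, and WT 1, the shallowest library, stands apart for *Itga7*, *Itga5* and *Itga3*.

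Divided by transcript length, the most abundant of the chosen integrin chains was *Itgb1*, at 93.4 ± 11.2 CPM per kb in WT (SD, n = 3) and 60.2 ± 5.20 in *Jag2*sm (SD, n = 4). *Itga6* led the α chains at 44.1 CPM per kb in WT and 38.9 in *Jag2*sm. In WT, *Itga7*, *Itga5* and *Itgav* followed at 20.2, 17.5 and 8.56 CPM per kb, and without WT replicate 1 at 11.3, 11.2 and 8.95. The other chosen β chains were low, with *Itgb5* at 6.95 and *Itgb3* at 0.387 CPM per kb in WT, or 5.23 and 0.082 without WT replicate 1. Outside the chosen genes, *Itgb4* and *Itgb6* were not low, with WT means of 103.8 and 69.9 CPM before division by length. *Itgb1bp2*, a short transcript, stood at 85.6 CPM per kb in WT, close to *Itgb1*, and at 11.7 in *Jag2*sm. No test was made of the order between genes.

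Among the laminin-binding chains no difference was called. *Itga6*, on chromosome 2, had 144.1, 225.6 and 214.3 CPM in WT replicates 1 to 3 and 103.2, 194.9, 179.4 and 208.7 CPM in *Jag2*sm replicates 1 to 4. The genotypes overlapped through WT replicate 1, and without it all *Jag2*sm libraries were lower than WT replicates 2 and 3. Both first replicates were the lowest of their group. For *Itga6* the log2 fold change was −0.21 with a 95% interval of −0.81 to 0.39 (adjusted p = 0.728 by edgeR), which leaves room for a fall of the size seen in *Itgb1*. Without WT replicate 1 it was −0.36 (adjusted p = 0.476). Within batches 1, 2 and 3, the numbers given in the labels and equal to the replicate numbers, its difference in log2 CPM was −0.47, −0.21 and −0.25.

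*Itga7*, the chain used for the selection, had 155.6, 47.2 and 45.5 CPM in WT and 29.7, 42.2, 51.7 and 48.1 CPM in *Jag2*sm MuSCs. A single library, WT replicate 1, stood far above the other six, with 27 reads on the gene. The log2 fold change was −0.63 (95% interval −1.52 to 0.26, adjusted p = 0.428 by edgeR), and without that library it was −0.10 (adjusted p = 0.871). Within batches the difference in log2 CPM was −2.32 in batch 1, −0.16 in batch 2 and 0.18 in batch 3. Thus the direction for *Itga7* was not shared by the batches.

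*Itga3*, whose product pairs with β1 and binds laminin in many epithelia, had 5.76, 42.7 and 36.0 CPM in WT and 41.0, 13.8, 53.7 and 10.6 CPM in *Jag2*sm. The WT value of 5.76 rests on 1 read. *Jag2*sm libraries fell into a higher and a lower pair, replicates 1 and 3 against 2 and 4, and the genotypes overlapped fully. The higher pair had more *Xist* than Y-linked reads and the lower pair the reverse. WT replicate 1, which also had more *Xist*, was the lowest WT library. For *Itga3* the log2 fold change was −0.19 with a wide interval, −1.43 to 1.05 (adjusted p = 0.904 by edgeR). The differences in log2 CPM within batches 1, 2 and 3 were 2.51, −1.51 and 0.55.

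*Itga4*, the chain that binds VCAM1 and an alternatively spliced part of fibronectin, was lower in *Jag2*sm MuSCs. The gene lies on chromosome 2 from 79085660 to 79163467 (GRCm39, plus strand). Its levels were 34.6, 20.0 and 20.9 CPM in WT and 7.07, 7.60, 9.85 and 8.15 CPM in *Jag2*sm, so the highest *Jag2*sm library lay below the lowest WT library. This was 2.67-fold lower, a log2 fold change of −1.42 ± 0.32 (SE, 95% interval −2.12 to −0.71, adjusted p = 0.0263 by edgeR). The reads are few, 59 in WT and 46 in *Jag2*sm, and the call did not hold in 8 of 16 other analyses although all gave a negative value. With the batch number as a block, a fit that called 4.72% of all genes lower, the log2 fold change was −1.43 (adjusted p = 0.0969), and DESeq2 gave an adjusted p of 0.0557. The differences in log2 CPM within batches 1, 2 and 3 were −2.05, −1.22 and −0.96. Left-out libraries ended the call for WT replicates 2 and 3 (adjusted p = 0.0810 and 0.0880) and for *Jag2*sm replicates 1, 2 and 4 (0.0528, 0.0849 and 0.0538). Exons of *Cerkl* on the opposite strand cover 20.8% of the exon bases of *Itga4*, and the strand setting of the count is not known.

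*Itga5*, whose product is the fibronectin receptor chain, was not called in any analysis run. Its levels were 132.6, 58.2 and 39.8 CPM in WT and 72.1, 64.3, 42.4 and 50.5 CPM in *Jag2*sm. As for *Itga7*, WT replicate 1 was the highest library, here with 23 reads. The log2 fold change was −0.20 (95% interval −1.002 to 0.60, adjusted p = 0.819 by edgeR), and it turned to 0.18 without WT replicate 1. Batches 1, 2 and 3 gave differences in log2 CPM of −0.86, 0.14 and 0.09.

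Among the chains of RGD receptors, *Itgav* was the only one of the 9 genes tested with a positive log2 fold change. It had 57.6, 78.2 and 54.1 CPM in WT and 86.3, 86.4, 87.7 and 82.3 CPM in *Jag2*sm. The *Jag2*sm libraries lay close together and all above WT, and WT replicate 2 was near them. The log2 fold change of 0.40 did not pass the adjustment (95% interval −0.05 to 0.85, adjusted p = 0.308 by edgeR), in the fit shown or in any of the 18 others. A two-sided exact permutation test of *Itgav* alone gave p = 0.0286, the smallest that 35 splits allow, and no account is taken there of the number of genes. The same test gave the same p for *Itga4*, *Itgb1* and *Itgb1bp2*, the other tested genes here without overlap, so it adds little to the separation. Within batches 1, 2 and 3 the difference in log2 CPM was 0.57, 0.14 and 0.68.

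*Itgb5* and *Itgb3*, whose products are among the partners of αV, were scarce. *Itgb6*, for a further partner and not among the 10 genes, had 80.7, 67.2 and 61.6 CPM in WT. *Itgb5* had 34.6, 16.8 and 18.0 CPM in WT and 21.2, 22.8, 9.36 and 19.6 CPM in *Jag2*sm, with overlap and a log2 fold change of −0.15 (95% interval −1.01 to 0.72, adjusted p = 0.891 by edgeR). Its direction turned under library-size scaling (0.0093) and when WT replicate 1 (0.0148) or *Jag2*sm replicate 3 (0.14) was left out, and within batches 1, 2 and 3 it was −0.66, 0.40 and −0.83 in log2 CPM. *Itgb3*, which pairs with αV in the vitronectin receptor, had 2 reads in all WT libraries and 3 in all *Jag2*sm libraries. It was not tested, and no difference in *Itgb3* was detectable at this depth.

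*Itgb1*, the common partner of α3, α4, α5, α6 and α7, had 530.3, 452.5 and 421.1 CPM in WT and 318.1, 266.7, 324.7 and 297.5 CPM in *Jag2*sm. All *Jag2*sm libraries lay below all WT libraries, with means of 468.0 ± 56.2 CPM (SD, n = 3) and 301.8 ± 26.1 CPM (SD, n = 4). The log2 fold change of −0.63 ± 0.20 (SE) had a 95% interval of −1.08 to −0.18, and its p of 0.0110 became 0.105 after edgeR's adjustment over all genes. DESeq2 alone among the 18 other analyses called it (log2 fold change −0.58, adjusted p = 0.0249), and DESeq2 called 4.69% of all genes lower. Without WT replicate 1 the value for *Itgb1* was −0.55 (adjusted p = 0.0723), and within batches 1, 2 and 3 the difference in log2 CPM was −0.73, −0.76 and −0.37. With the batch block the adjusted p was 0.319.

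*Itgb1bp2*, the melusin gene on the X chromosome, showed the largest difference of the 9 genes tested. It spans 100492665 to 100508645 of that chromosome (GRCm39, plus strand), and no other gene overlaps its exons. It had 115.3, 98.2 and 130.9 CPM in WT and 18.4, 11.7, 3.45 and 29.3 CPM in *Jag2*sm. The lowest WT library stood well above the highest *Jag2*sm library, and *Jag2*sm replicate 3 was the lowest of all. This was 7.71-fold lower, a log2 fold change of −2.95 ± 0.48 (SE, 95% interval −4.01 to −1.88, adjusted p = 0.00701 by edgeR), from 310 reads in WT and 73 in *Jag2*sm. *Itgb1bp2* was called lower in all 17 other analyses that tested it, with log2 fold changes from −3.71 to −2.53, and within batches 1, 2 and 3 the difference in log2 CPM was −2.54, −2.89 and −4.68. In WT replicates 2 and 3 and *Jag2*sm replicates 2 and 4, Y-linked reads outnumbered those on *Xist*. There *Itgb1bp2* had 98.2 and 130.9 CPM in WT and 11.7 and 29.3 CPM in *Jag2*sm.

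**Figure D2:**
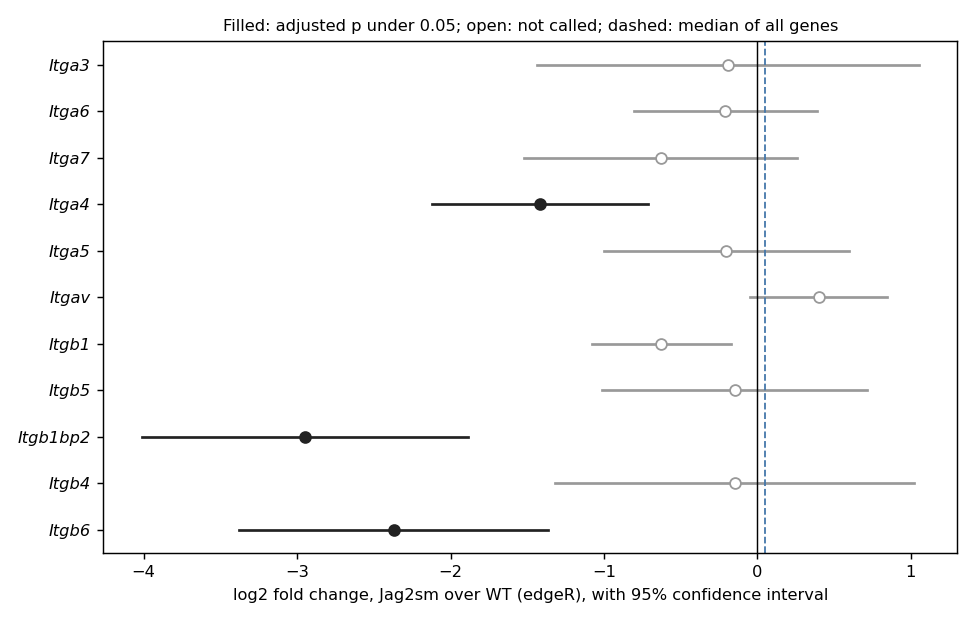
Log2 fold change of *Jag2*sm over WT (x axis) with its 95% confidence interval for the 9 tested genes and the other tested β chains, *Itgb4* and *Itgb6*, by edgeR. Filled points passed an adjusted p under 0.05 (*Itga4*, *Itgb1bp2* and *Itgb6*), open points did not, and the dashed line is the median of all genes, 0.05.

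Since *Itgb1bp2* is a gene of differentiated muscle, its level was set beside a list of 20 differentiated muscle genes such as *Myh8*, a fetal myosin, and *Mymk*, a fusion protein. The summed level of that list was 31769 to 52317 CPM in WT and 2537 to 9649 CPM in *Jag2*sm. Of its 18 tested genes 16 were called lower and none higher, and the median of the log2 fold changes was −3.21. In *Jag2*sm the libraries took the same order for both, with replicate 4 the highest, then 1, 2 and 3. Per 1000 reads of the list, *Itgb1bp2* had 2.20, 3.09 and 3.59 reads in WT and 2.58, 2.30, 1.36 and 3.04 in *Jag2*sm, and here the genotypes overlapped. Per 100 reads of *Myog*, a transcription factor of early differentiation, *Itgb1bp2* had 3.98, 4.42 and 4.59 reads in WT and 2.58, 3.04, 3.13 and 3.24 in *Jag2*sm, without overlap. The part of differentiated cells in the fall of *Itgb1bp2* was not tested, and in bulk RNA fewer such cells and less RNA per cell cannot be told apart.

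**Figure D3:**
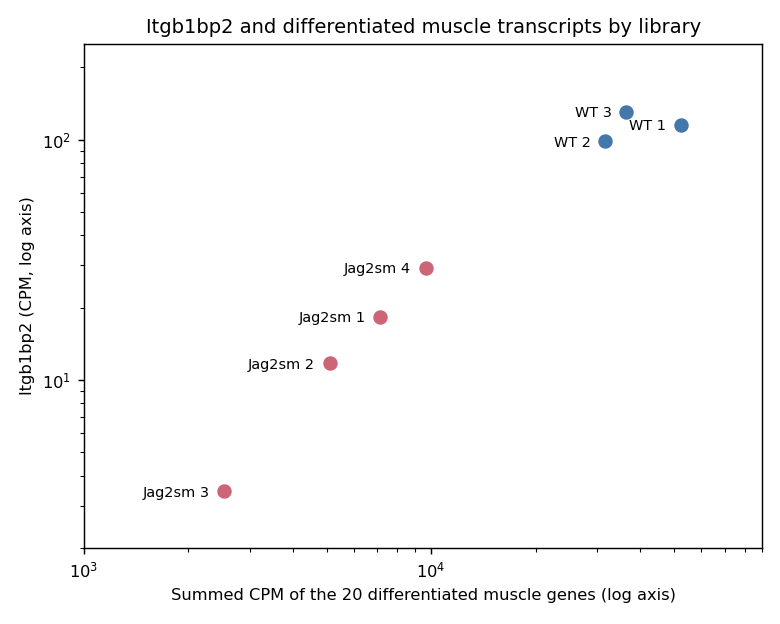
Level of *Itgb1bp2* (CPM, log axis) against the summed level of the 20 differentiated muscle genes (CPM, log axis), 1 point per library, WT in blue and *Jag2*sm in red. The *Jag2*sm libraries lie at 3.45 to 29.3 CPM of *Itgb1bp2* and 2537 to 9649 CPM of the list, below the WT libraries on both axes.

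The genes most like *Itgb1bp2* across the 7 libraries, by Pearson correlation of log2 CPM over all tested genes, were *Mymk* (0.997), *Tnnt3* (0.996) and *Pgam2* (0.994). Those most like *Itga4* were *Sgcb* (0.996), *Trp53inp2* (0.992) and *Mitf* (0.992). The libraries differ in genotype and depth, which all these genes share, so the values are a description. *Mymk*, *Tnnt3* and *Pgam2* are genes of myoblast fusion, fast fibre contraction and muscle glycolysis, and *Sgcb* encodes a sarcoglycan of the dystrophin complex.

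The 250 bases before the start of the canonical transcript are shown for the called genes, with E-boxes marked, the motif that myogenic factors such as MYOD bind. Both lie on the plus strand of GRCm39 and were read from the genome at GENCODE M39 starts, *Itgb1bp2* at chrX:100492418-100492667 and *Itga4* at chr2:79085410-79085659. Capitals mark E-boxes (CANNTG, found on both strands).
Itgb1bp2: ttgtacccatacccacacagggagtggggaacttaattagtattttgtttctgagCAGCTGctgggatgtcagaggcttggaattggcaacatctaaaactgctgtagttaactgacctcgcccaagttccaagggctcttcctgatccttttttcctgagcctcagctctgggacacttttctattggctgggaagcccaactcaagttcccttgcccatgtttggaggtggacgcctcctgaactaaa
Itga4: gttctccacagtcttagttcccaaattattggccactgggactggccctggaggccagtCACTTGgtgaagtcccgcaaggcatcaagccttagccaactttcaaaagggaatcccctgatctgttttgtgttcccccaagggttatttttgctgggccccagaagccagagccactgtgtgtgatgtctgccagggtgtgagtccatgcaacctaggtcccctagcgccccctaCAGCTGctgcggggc

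The window of *Itgb1bp2* held 1 E-box, of the form CAGCTG, starting 195 bases before the transcript. That of *Itga4* held 2, a CAGCTG starting 15 bases before the transcript and another starting 191 bases before it. CANNTG was found in 64.8% of 21770 windows of protein-coding genes and in those of 8 of the 10 genes here, and CAGCTG, which CANNTG includes, in 11.9% and in 3, the third being *Itgb5*. The MEF2 consensus was present in 2.79% of all windows and here in that of *Itgav* alone, and the CArG box in 1.40% and in none of the 10. A match in these letters is a description of the window and not a binding site.

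Within a library, the mix of α chains can be read without scaling between libraries. Of the reads on the 6 α genes, *Itga4* took 6.52%, 4.25% and 5.08% in WT and 2.08%, 1.86%, 2.32% and 2.00% in *Jag2*sm. *Itgav* took 10.9%, 16.6% and 13.2% in WT and 25.4%, 21.1%, 20.6% and 20.2% in *Jag2*sm. The genotypes did not overlap for either, lower for *Itga4* and higher for *Itgav*, and they overlapped for the rest. The CPM of *Itga4* and *Itgav*, from the same reads, separated the genotypes too, so their shares add little to it. In CPM such a separation was seen in 12.2% of all genes (lower) and 10.3% (higher). *Itga6* was the largest share in 6 of the 7 libraries, between 30.4% and 52.2% there, and in WT replicate 1 *Itga7* at 29.3% came before it at 27.2%. *Itgb1* made up 91.9% to 97.1% of the reads on the 3 β genes in every library. That total leaves out *Itgb4* (282 reads in WT and 544 in *Jag2*sm) and *Itgb6* (183 and 64), beside 1236 and 1635 on *Itgb1*. These shares are descriptions, with no test.

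**Figure D4:**
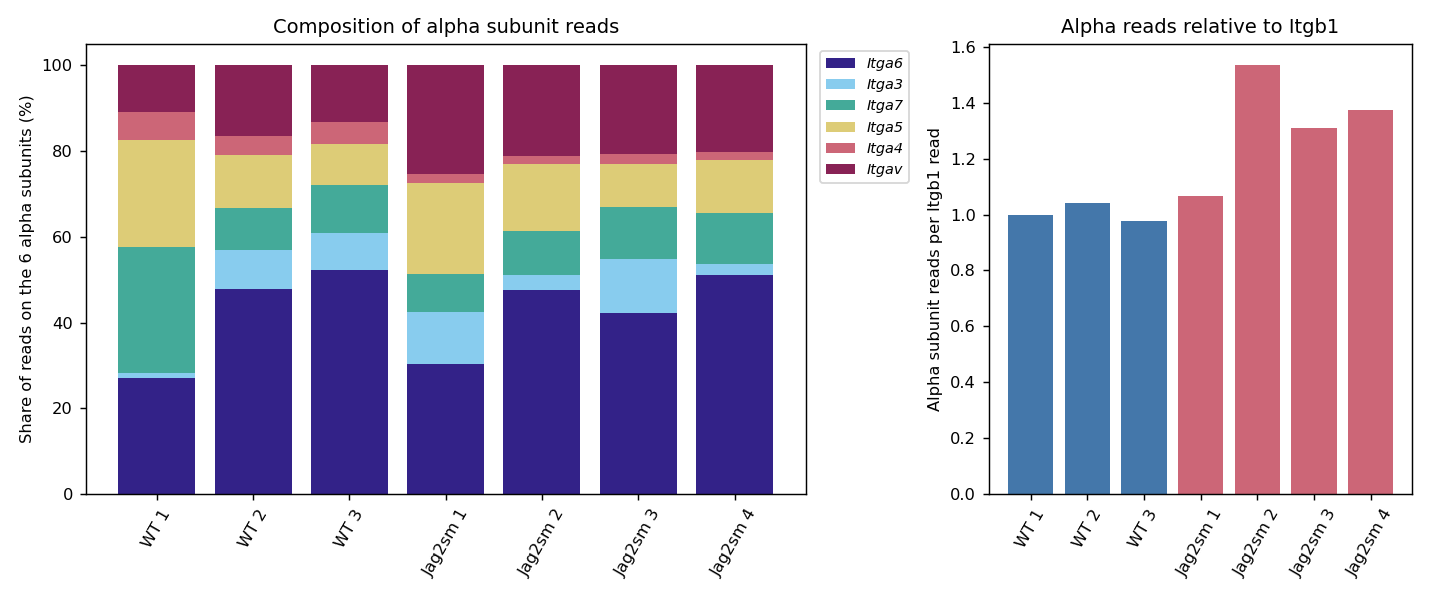
Left, share (%) of the reads on the 6 α genes taken by each in every library; right, reads on the 6 α genes per read on *Itgb1*, WT in blue and *Jag2*sm in red. *Itgav* holds 20.2% to 25.4% in *Jag2*sm against 10.9% to 16.6% in WT, and the ratio to *Itgb1* is 1.07 to 1.53 against 0.9752 to 1.04.

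Summed over the 6 α genes the level was 470.9 ± 59.8 CPM in WT (SD, n = 3) and 395.4 ± 38.1 CPM in *Jag2*sm (SD, n = 4), with overlap. Summed over the 3 β genes it was 493.3 ± 68.6 and 320.5 ± 22.2 CPM, with all *Jag2*sm libraries lower. Accordingly the reads on α genes per read on *Itgb1* were 1.00, 1.04 and 0.9752 in WT and 1.07, 1.53, 1.31 and 1.37 in *Jag2*sm. Every *Jag2*sm library had the higher ratio, with *Jag2*sm replicate 1 close to WT. For *Itgav*, reads per 100 reads of *Itgb1* were 10.9, 17.3 and 12.8 in WT and 27.1, 32.4, 27.0 and 27.7 in *Jag2*sm. All *Jag2*sm libraries were higher for *Itgav* and lower for *Itgb1*, so this ratio had to separate the genotypes, and neither gene was called. *Itga4* had 6.52, 4.43 and 4.95 reads per 100 reads of *Itgb1* in WT and 2.22, 2.85, 3.03 and 2.74 in *Jag2*sm. Thus *Itga4* was also lower relative to its own β chain.

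The other 17 integrin subunits of mouse were mostly below the reach of these libraries, and 2 could be tested. *Itgb6*, an RGD-binding partner of αV known from epithelia, was lower in *Jag2*sm, with 80.7, 67.2 and 61.6 CPM in WT and 24.0, 5.53, 6.41 and 21.2 CPM in *Jag2*sm. Its log2 fold change was −2.37 ± 0.45 (SE, adjusted p = 0.0131 by edgeR), and without WT replicate 2 the adjusted p was 0.0532. *Itgb4*, the partner of α6 in hemidesmosomes, had 115.3, 111.8 and 84.4 CPM in WT and 114.5, 35.9, 181.3 and 35.1 CPM in *Jag2*sm (adjusted p = 0.926 by edgeR). As with *Itga3*, *Jag2*sm replicates 1 and 3, with more *Xist* than Y-linked reads, stood above replicates 2 and 4. WT replicate 1, of that kind too, was the highest WT library for *Itgb4* but the lowest for *Itga3*. A link to sex was not tested. *Itga9*, a receptor chain for tenascin and osteopontin, had too few reads for the edgeR filter, 20 in WT and 3 in *Jag2*sm, with 40.4, 3.88 and 6.64 CPM in WT and 0, 1.38, 0 and 0.815 CPM in *Jag2*sm. Every *Jag2*sm library was lower than every WT library, and most of the WT level lay in WT replicate 1. *Itga9* was called lower by DESeq2 (log2 fold change −4.57, adjusted p = 0.00925) and by edgeR with no filter (−3.90, adjusted p = 0.000366).

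The ligands and partners were counted in fixed lists, with calls by edgeR unless another tool is named. Of 12 tested genes for fibronectin and other ligands of these integrins, 1 was called higher and 1 lower, with a median log2 fold change of 0.32. *Spp1*, which encodes osteopontin, an RGD ligand of αV integrins, rose from 1418, 2052 and 1302 CPM in WT to 8234, 4085, 4124 and 3340 CPM in *Jag2*sm. The log2 fold change of *Spp1* was 1.63 ± 0.38 (SE, adjusted p = 0.0302 by edgeR), with an adjusted p of 0.0812 under the batch block and of 0.0531 without WT replicate 1. The call was also lost without WT replicates 2 or 3 or *Jag2*sm replicate 2, with an adjusted p of up to 0.151.

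*Tgfb3*, whose latent form carries an RGD motif, fell from 161.4, 68.5 and 66.4 CPM to 25.5, 19.3, 5.91 and 22.01 CPM. *Tgfb3* changed by −2.35 ± 0.46 on the log2 scale (SE, adjusted p = 0.0143 by edgeR), and all 17 other analyses called it. The fibronectin gene *Fn1* had a log2 fold change of 1.00 and *Tnc*, for tenascin C, one of 1.17, and neither passed (adjusted p = 0.174 and 0.166 by edgeR). *Vtn*, the vitronectin gene, had 1 read in each genotype.

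Of 6 tested laminin chains none was called, with a median log2 fold change of −0.02. *Lamb1*, the β1 chain of laminin, had 74.9, 161.6 and 117.6 CPM in WT and 319.6, 212.1, 333.1 and 204.6 CPM in *Jag2*sm. Every *Jag2*sm library was higher, and the log2 fold change of 1.11 just missed the threshold (adjusted p = 0.0527 by edgeR), while DESeq2 gave 0.0107. *Lama2*, the α chain of the adult muscle basal lamina, had a log2 fold change of −0.53 (adjusted p = 0.562 by edgeR).

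Of 19 tested genes that link integrins to actin, 1 was called, and the median log2 fold change was 0.08. *Flnc*, the muscle filamin, fell from 1153, 365.9 and 404.0 CPM in WT to 151.3, 176.2, 171.0 and 217.7 CPM in *Jag2*sm (log2 fold change −1.80 ± 0.38 SE, adjusted p = 0.0192 by edgeR). Without WT replicate 1, its highest library, the log2 fold change of *Flnc* was −1.11 (adjusted p = 0.00898). Without *Jag2*sm replicates 1 or 2 it was not called, with an adjusted p of up to 0.0711. The more abundant linkers *Zyx*, for zyxin, and *Flna*, for filamin A, did not pass, with log2 fold changes of 0.51 and 0.78 (adjusted p = 0.365 and 0.146 by edgeR).

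Of 17 tested genes of adhesion signalling, 1 was called higher and 1 lower, around a median of 0.0048 on the log2 scale. *Fyn*, a Src family kinase, fell from 276.7, 157.7 and 140.4 CPM to 63.6, 79.5, 98.1 and 76.6 CPM (log2 fold change −1.19, adjusted p = 0.0254 by edgeR, 0.0985 under the batch block). The call of *Fyn* was lost without WT replicate 2 or *Jag2*sm replicates 1, 2 or 4, with an adjusted p of up to 0.0852. *Ddr2*, a collagen receptor kinase, rose from 40.4, 44.6 and 25.6 CPM to 56.6, 74.6, 84.3 and 78.3 CPM (log2 fold change 1.03, adjusted p = 0.0419 by edgeR, 0.105 under the batch block). Leaving out any library but *Jag2*sm replicate 1 ended the call of *Ddr2*, with an adjusted p of up to 0.226. *Bcar1*, the adaptor p130Cas, stood at that median (adjusted p = 0.999 by edgeR). Of 13 tested tetraspanins, syndecans and other membrane partners none was called in the edgeR fit shown, with a median of 0.43. Other filters and scaling by library size alone called some genes of this list. The abundant *Cd63* had a log2 fold change of 0.55 (adjusted p = 0.464 by edgeR). *Sdc2*, for syndecan 2, was higher in all *Jag2*sm libraries than in WT, with 11.5, 113.1 and 82.5 CPM in WT and 118.8, 268.8, 203.0 and 273.9 CPM in *Jag2*sm. Its log2 fold change of 1.45 did not pass (adjusted p = 0.0891 by edgeR), but it was called under the batch block (1.56, adjusted p = 0.0383) and by DESeq2 (adjusted p = 0.0268). *Sdc3* and *Cd47* had log2 fold changes of 0.97 and 1.03 that did not pass (adjusted p = 0.0871 and 0.161 by edgeR). Among the fits with a library left out, they were called only without *Jag2*sm replicate 3 (adjusted p = 0.0182 and 0.0290 by edgeR).

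**Figure D5:**
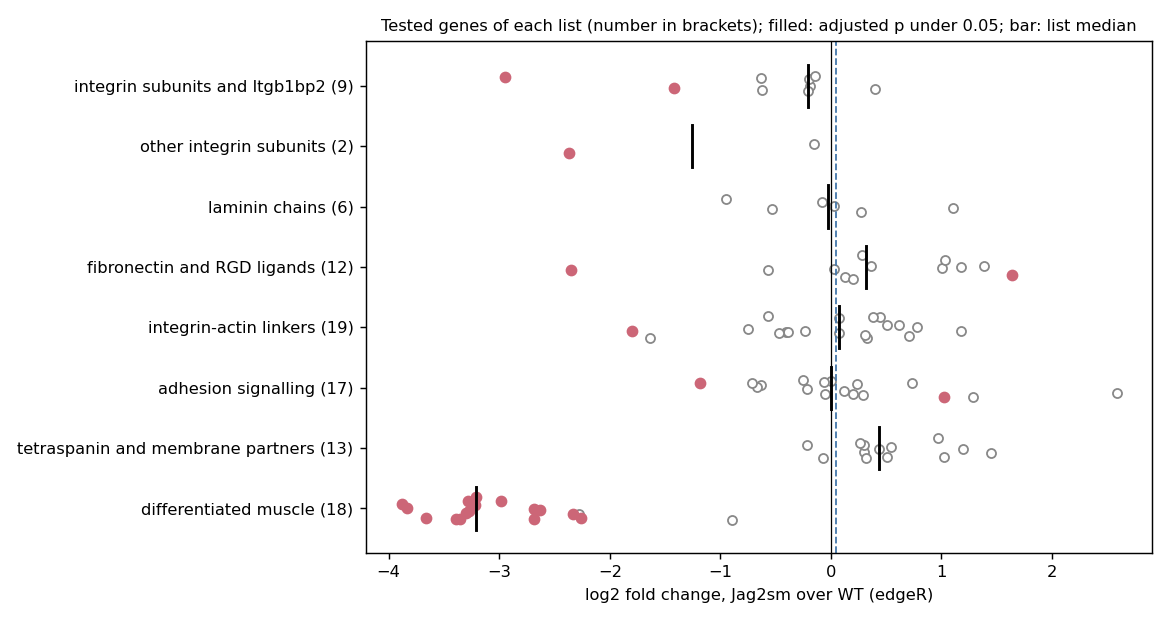
Log2 fold change of *Jag2*sm over WT (x axis, edgeR) for the tested genes of each list, 1 point per gene, filled where the adjusted p was under 0.05, with the list median as a bar and the median of all genes (0.05) as a dashed line. Filled points are 2 of 9 for the integrin subunits and *Itgb1bp2*, 1 of 2 for the other integrin subunits and 16 of 18 for the differentiated muscle genes. Of 12 ligands and of 17 signalling genes, 1 higher and 1 lower are filled in each list. Of 19 linkers 1 is filled, and of 6 laminin chains and 13 partners none. Over all genes 4.84% were called lower and 1.42% higher.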

How the data were processed

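RNA of cultured MuSCs was sequenced as direct cDNA in 3 WT and 4 *Jag2*sm libraries. Alignment to GRCm39 used minimap2 2.17 and the authors counted reads per gene by HTSeq, whose version, annotation and strand setting are not given in the sources used here, and deposited raw counts per gene for each library. The 5 summary rows of each file held 45.0% to 75.2% of reads and were left out. The authors' table of fold changes, p-values and adjusted p-values was not used.

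The counts were tested by edgeR 4.0.16 in R 4.3.3 (filterByExpr with a minimum count of 10, TMM, glmQLFit and glmQLFTest without covariates), and 9489 genes were tested. The threshold was an adjusted p of 0.05 (Benjamini-Hochberg, over all genes). CPM are scaled to the TMM library size, with a prior count of 2 on the log2 scale. Confidence intervals are at 95%. Exact permutation tests were two-sided. The script was tested on simulated data. Positions and lengths come from GENCODE M39, which held 56017 of the identifiers. Direct cDNA read from the end of transcripts can miss distal exons, so CPM per kb depends on read length as well.

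The labels give a batch number equal to the replicate number, and *Jag2*sm replicate 4 has no WT partner. The numbers were taken to pair the samples because the labels call them batches. Deviations of same-numbered libraries from their group means correlated at 0.074, 0.0144 and 0.0539 over the tested genes. The fit with the batch number as a block, DESeq2 1.42.0, limma-voom 3.58.1, other scalings, filters, thinning, a length correction and leaving out each library were alternatives. The members and gene lists were chosen with earlier results of these data known. Genes named were drawn from the 10 members, *Jag2*, up to 5 called genes of each list by size of change, the 2 most abundant that were not called, and for each called member the 3 most correlated genes. Not every gene under this rule is given in the text. *Itga9*, *Sdc2*, *Sdc3*, *Cd47*, *Vtn*, *Pax7*, *Myog*, *Ilk* and the markers at 0 were named after their values were seen.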

Additional observations from a re-analysis of the deposited data

Results flagged for a closer look

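Among 44 named genes checked in the 4 *Jag2*sm libraries, 5 had 1 library apart from the other three, by the ratio of its gap to the range of the group (above Dixon's critical value for a group of this size). Chance sets a library apart in about 1 of 20 such groups. None of the 10 integrin genes was among them. *Spp1* stood at 8234 CPM in *Jag2*sm replicate 1 against 3340 to 4124 in the others, and *Rgs5*, a pericyte gene, at 644.8 CPM against 25.3 to 40.4. *Kank2* was lower in *Jag2*sm replicate 1, at 111.7 CPM against 147.8 to 154.1. In *Jag2*sm replicate 3, *Sdc4* stood at 446.4 CPM against 316.7 to 333.8, and *Ncam1* at 391.2 CPM against 239.1 to 248.9.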

How the results depend on the processing

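*Itgb1bp2* kept its direction and call in every analysis that tested it, and *Itgav*, *Itgb1* and *Itga7* kept their directions. Requiring 10 counts in every library left neither *Itga4* nor *Itgb1bp2* to test, so 0 members were called. *Itgb1bp2* alone (1 member) was called under the replicate block and under that block with the length trend removed. After thinning to the smallest library it was also the only member called, and there *Itga4* had too few reads to be tested. The log2 fold change of *Itga4* was −1.43 with the replicate block, −1.35 with the length trend removed as well and −1.42 by DESeq2, and not called in these. The block changed no other member's call. Of the fixed-list genes, it ended the calls of *Spp1*, *Fyn* and *Ddr2* and added *Sdc2*. DESeq2 called *Itgb1* at −0.58. Thinning turned *Itga6* to 0.052, and library size alone turned *Itgb5* to 0.0093. The causes were not tested.

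Called genes numbered 594, and 1248 with no filter, 274 with 10 counts in every library and 297 after thinning. Of the fixed lists of ligands, linkers, signalling genes, partners and other integrins 6 genes were called, 13 by DESeq2 and 21 with no filter, alternatives whose counts for these lists were added after seeing the data. Scaling by library size alone shifted the median of all genes by 0.16 on the log2 scale, and gave 241 genes higher and 384 lower against 135 and 459.

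With each library left out in turn, 251 to 616 genes were called, 1 to 2 members and 2 to 7 genes of the fixed lists. Fewest were called without *Jag2*sm replicate 2, and 343 and 341 without WT replicates 2 and 3. Log2 fold changes ranged from −0.80 to 0.13 for *Itga3*, −1.56 to −1.29 for *Itga4*, −0.58 to 0.18 for *Itga5* and −0.32 to 0.14 for *Itgb5*. Without *Jag2*sm replicates 2 or 4, *Itga3* also turned positive (0.07 and 0.09). Exact tests with a library left out were not run, since they cannot go below 0.0667 (a WT library left out) or 0.1 (a *Jag2*sm library). Depth limits *Itgb3* and every value of WT replicate 1 that rests on few reads, at 5.76 CPM for each read.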

Other observations

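*Ilk*, the integrin-linked kinase gene, had 0 reads in all 7 libraries. Exons of *Rrp8* and *Taf10* on the opposite strand overlap 90.3% of its exon bases, so its count cannot be read as a level of the transcript.

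The summed level of 8 immune markers was 5.76 to 25.9 CPM in WT and 5.42 to 19.8 CPM in *Jag2*sm, with *Ptprc*, *Adgre1* and *Tyrobp* at 0 in every library. Only *Laptm5* among them was tested, and it was not called (log2 fold change −1.74, adjusted p = 0.0760 by edgeR). For 8 fibro-adipogenic markers the summed level was 26.6 to 75.6 CPM in WT and 40.8 to 47.8 CPM in *Jag2*sm, with *Lum* and *Dpt* at 0. Of 8 mural markers 4 were tested and 2 were called lower, *Des*, which muscle cells express strongly, and *Abcc9* (log2 fold change −3.71, adjusted p = 0.0139 by edgeR, from 38 reads in WT and 6 in *Jag2*sm). The other two had positive values that were not called. *Rgs5* had a log2 fold change of 3.73 (adjusted p = 0.135 by edgeR), with 11.5, 12.9 and 14.2 CPM in WT and 644.8, 29.7, 40.4 and 25.3 CPM in *Jag2*sm, and *Notch3* one of 0.66 (adjusted p = 0.501 by edgeR). Of 8 glial markers only *Ncam1*, also a muscle gene, could be tested, and it was not called (log2 fold change −0.41, adjusted p = 0.396 by edgeR). Of 8 MuSC and myoblast markers tested, 1 was called, *Des* (log2 fold change −1.63, adjusted p = 0.0244 by edgeR, 0.0596 under the batch block).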
